A study of Mus musculus with 2 samples.

Results

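The loci examined were those of 8 genes of fibroblast growth factor (FGF) signalling and of the feedback on its kinase ERK, among 21938 protein-coding genes. They were the ligand gene Fgf4, the receptor genes Fgfr1 and Fgfr2, the ERK phosphatase gene Dusp6, the signalling inhibitor genes Spry2 and Spry4, and the ETS transcription factor genes Etv4 and Etv5. They were listed by name, with earlier results of these data known, and each locus was its GENCODE vM21 gene span on mm10 with 5 kb added upstream. These loci held 25294 of the 13676795 CpG sites of replicate 1 and 9032 of the 4918612 sites of replicate 2.

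DNA came from E14 mouse embryonic stem cells (mESCs), a single line grown on gelatin in serum with leukaemia inhibitory factor (LIF), and the 2 replicates were different passages under the same condition. In SCoTCH-seq the 2 strands of one DNA fragment stay linked, so a read pair gives C, 5mC (M) or 5hmC (H) for the plus and for the minus strand of the same CpG. Of the 9 states, with the plus strand written first, CC is unmodified and MM fully methylated, MC/CM and HC/CH are modified on 1 strand, HM/MH joins both marks and HH is 5hmC on both. With 1 condition, no comparison between treatments was possible, and all tests below were made within a library and required in both.

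FGF4 is the main FGF that mESCs secrete, and it acts through FGFR1 and FGFR2 on the RAS-RAF-MEK-ERK cascade, which primes these cells to leave the pluripotent state. ERK activity in turn switches on genes whose products restrain the cascade, among them DUSP6, which removes the activating phosphates of ERK, and the Sprouty proteins, which act upstream of it. ETV4 and ETV5, the ETS transcription factors, act in the nucleus downstream of ERK. TET enzymes oxidise 5mC to 5hmC, and active regulatory DNA and CpG islands commonly hold unmodified CpGs.

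The span of a gene in the annotation reaches its most distant transcript, and for some of these genes that start was far from the usual one. The Fgfr2 span covered 2961 kb and 29 other protein-coding genes, and it began 2857 kb upstream of its principal transcript (the APPRIS choice of main isoform). The Fgf4 span of 17.9 kb began 14019 bp upstream of the principal transcript, and the Fgfr1 span 5.11 kb upstream. The start of the other 5 genes differed by at most 61 bp. On mm10 the principal transcripts lay on the plus strand for Fgf4 at chr7:144861386-144865243, Fgfr1 at chr8:25518759-25575718 and Dusp6 at chr10:99263231-99267488, and on the minus strand for Fgfr2 at chr7:130163709-130266191, Spry2 at chr14:105891947-105896819, Spry4 at chr18:38586247-38601415, Etv4 at chr11:101769742-101785310 and Etv5 at chr16:22381309-22439719. Values by the full span are therefore given with those of the principal-transcript span, a choice made after the data had been seen, which left 3452 and 1233 sites in the 2 replicates. Here and below, values are given for replicate 1 and then for replicate 2, as a percentage of the calls summed over sites. The sites of the series had 143497239 and 31306245 calls, and intervals cover counting error only.

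Promoter sequences are shown for Fgf4, Dusp6, Spry2 and Etv5, and unmethylated stretches described below extend to both sides of these starts. They are the RefSeq windows of 250 bases before and 50 bases after the transcription start site (TSS) on GRCm38.p6, with CpGs in capitals.

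Fgf4 promoter, chr7:144861136-144861435, plus strand: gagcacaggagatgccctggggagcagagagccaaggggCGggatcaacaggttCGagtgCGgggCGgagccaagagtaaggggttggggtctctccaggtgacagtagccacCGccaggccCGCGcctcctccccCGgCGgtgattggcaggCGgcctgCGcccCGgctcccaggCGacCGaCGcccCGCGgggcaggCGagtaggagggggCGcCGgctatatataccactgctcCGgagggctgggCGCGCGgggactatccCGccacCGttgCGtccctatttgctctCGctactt

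Dusp6 promoter, chr10:99262981-99263280, plus strand: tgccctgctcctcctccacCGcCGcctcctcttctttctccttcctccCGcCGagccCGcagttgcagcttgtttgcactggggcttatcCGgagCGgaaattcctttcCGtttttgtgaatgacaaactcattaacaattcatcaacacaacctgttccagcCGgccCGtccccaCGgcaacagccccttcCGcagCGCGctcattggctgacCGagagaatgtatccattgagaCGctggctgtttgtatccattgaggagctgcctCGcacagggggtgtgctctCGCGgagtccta

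Spry2 promoter, chr14:105896770-105897069, minus strand: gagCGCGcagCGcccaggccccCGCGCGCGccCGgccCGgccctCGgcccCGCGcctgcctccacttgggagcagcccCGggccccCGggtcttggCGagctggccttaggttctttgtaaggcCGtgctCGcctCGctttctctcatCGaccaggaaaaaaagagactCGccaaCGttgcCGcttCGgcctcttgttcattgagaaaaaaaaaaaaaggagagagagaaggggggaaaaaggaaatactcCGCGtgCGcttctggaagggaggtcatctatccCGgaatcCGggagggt

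Etv5 promoter, chr16:22439521-22439820, minus strand: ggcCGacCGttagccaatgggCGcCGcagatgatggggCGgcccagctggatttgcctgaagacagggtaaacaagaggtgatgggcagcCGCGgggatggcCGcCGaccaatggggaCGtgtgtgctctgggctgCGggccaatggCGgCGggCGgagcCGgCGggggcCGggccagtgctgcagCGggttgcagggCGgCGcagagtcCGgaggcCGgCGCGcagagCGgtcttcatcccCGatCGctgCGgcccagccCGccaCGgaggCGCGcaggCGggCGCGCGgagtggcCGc

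The 4 windows held 28, 19, 28 and 37 CpGs, against a median of 7 over 32851 RefSeq promoters. In replicate 1, 35 of 35 calls in the Fgf4 window were CC, as were 16 of 16 for Dusp6, 34 of 34 for Spry2 and 106 of 107 for Etv5. These calls came from 5, 3, 6 and 17 CpGs in this order, so most CpGs of each window had no call. Replicate 2 had 6 of 6 CC calls for Fgf4, from 1 CpG, and 21 of 21 for Etv5, from 4 CpGs, and no call for Dusp6 or Spry2. The RefSeq window of Fgfr2, which lies upstream of the principal start, held 4 CpGs and was CC in 33 of 43 and 4 of 6 calls. The letters CGGAAG (an ETS-type motif, read on both strands) were found once in the Dusp6 window and in no other window of these genes, and 16.9% of all promoters held it. GGGCGG, the GC box, was found 2 times for Fgf4 and 3 times for Etv5, and 35.7% of promoters held it. TATATA was found at 2 overlapping positions in the Fgf4 window, and 5.67% of promoters held it. Spry4, Fgfr1 and Etv4 are named here without a sequence.

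The promoters of the feedback genes were almost free of modification. Within 1 kb of the TSS, CC made up 99.8% and 98.8% of calls at Dusp6 (560 and 81 calls), 99.3% and 100% at Spry2 (450 and 68 calls), and 99.7% and 100% at Spry4 (290 and 87 calls). Etv4 had 97.7% and 96.3% (264 and 54 calls), and Etv5 had 98.8% and 100% (499 and 91 calls). These levels lay above the median of 90.1% and 88.7% over 11184 promoters in both replicates.

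The ligand and receptor promoters depended on which start was used. At the start of the gene span, Fgf4 had 46.5% and 48.3% CC (114 and 29 calls) and Fgfr1 had 80.8% and 87.1% (292 and 31 calls). The Fgfr2 window there was 100% CC over 121 calls of replicate 1 and had no call in replicate 2. At the start of the principal transcript, CC was 96.9% and 94.5% at Fgf4 (223 and 127 calls) and 95.4% and 89.7% at Fgfr2 (417 and 58 calls). Fgfr1 had 71.7% there in replicate 1 and 38.9% in replicate 2, where only 18 calls from 3 sites were read.

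CC was higher in the promoter than in the gene body for 5 of the 5 members with at least 50 calls in both parts, by two-sided Fisher's exact tests in each replicate with Benjamini-Hochberg adjustment over 10307 genes. All protein-coding genes gave this call in 87.8% of cases, so the count of members is close to what promoters show in general. The difference was 38.1 and 46.1 percentage points at Etv5, 38.5 and 44.8 at Etv4, and 29.9 and 39.1 at Spry4. It was smaller at Dusp6 (18.7 and 17.9 points) and smallest of the 5 at Spry2 (4.62 and 5.81 points, Fisher's exact test, adjusted p = 4.35e-06 and 0.0496), whose body was itself nearly unmodified. With principal-transcript spans 5 of 6 were called, and of 35 further genes of the pathway 26 of the 27 tested were. The share of all genes is not given for this setting, so the count shows nothing particular to the members. Etv4, with 47 promoter calls in replicate 2, could no longer be tested, and Fgf4 could be and was not called, with differences of 1.24 and -0.55 points. Fgfr2 was called there, with a body lower by 71.9 and 69.0 points than its promoter. With a promoter of 2 kb either side all 8 could be tested, and CC was called higher at 7 (78.8% of all genes) and lower at Fgf4 (4.26% of all genes), by -44.8 and -50.6 points at the start of its full span. HC/CH was lower in the promoter for 2 of 5 members, Spry4 and Etv5, and in 12.2% of all genes. This count was 0 of 3 over sites covered in both replicates (7.48% of all genes) and 1 of 8, Spry4, with the 2 kb promoter (8.18%). From replicate 1 alone it was 4 of 5, with Dusp6 and Etv4 added, against 62.7% of all genes.

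**Figure D1:**
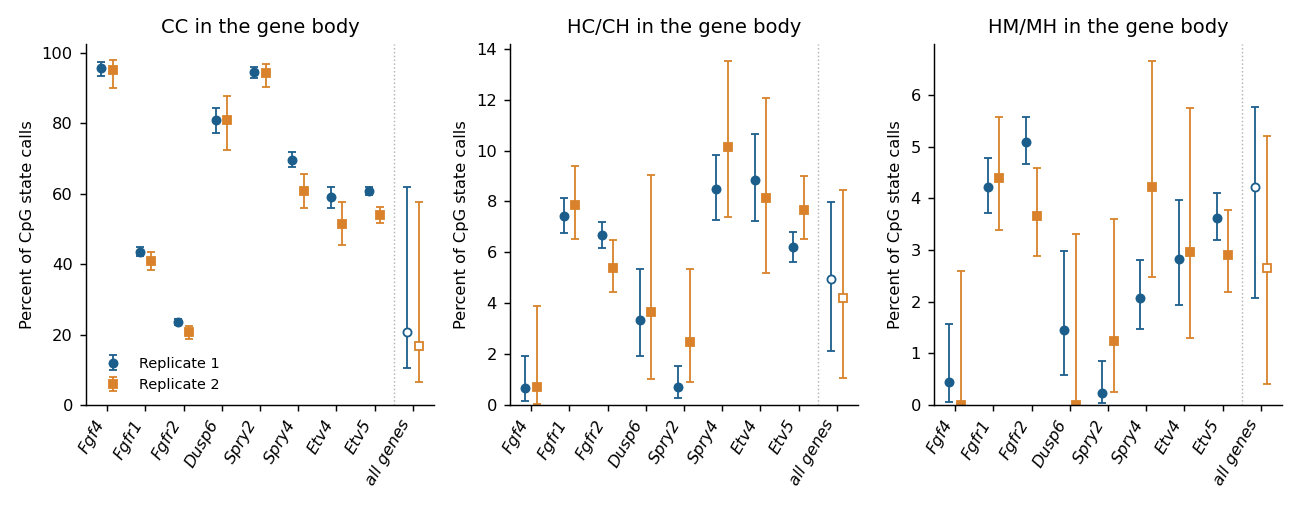
CpG states in the bodies of the 8 genes (principal-transcript span without the 1 kb around the TSS), as a percentage of calls. Filled points are replicate 1 (circles) and replicate 2 (squares) with exact 95% intervals, and open points are the median over 17108 genes with bars from the 5th to the 95th percentile. Fgf4 and Spry2 stand at about 95% CC and Spry4 and Etv4 have the highest HC/CH.

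The bodies of most of these genes, not only their promoters, were rich in unmodified CpGs. The median gene had 21.3% and 17.2% CC in its body. Spry2 had 94.7% and 94.2% (mean 94.5% ± 0.369, SD, n = 2). Dusp6, which like Spry2 is a short gene of under 5 kb, had 81.1% and 80.9%. Fgf4 had 75.8% and 80.2% over its full span and 95.6% and 95.04% over the principal transcript, where only 20 and 7 of its calls carried any modification.

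Of the longer genes, 4 stood lower but still above the median. Spry4 had 69.7% and 60.9% CC, Etv5 had 60.7% and 53.9%, and Etv4 had 59.2% and 51.5%. Fgfr1 had 46.6% and 41.6%. In both replicates these 4 bodies ranked between the 88th and the 97th percentile of all genes. Fgfr2 stood close to the median, at 21.3% and 17.1% over its full span. Over its principal transcript it had 23.5% and 20.6%, against medians of 20.8% and 16.7% for such spans.

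Against the summed calls of all other gene bodies, CC was called higher at 7 of the 8 members, a call made for 33.1% of 17346 genes. Fgfr2 was not called (-0.05 and -1.17 points, Fisher's exact test, adjusted p = 0.61 and 2.07e-11). With principal-transcript spans 8 of 8 were called higher, against 32.3% of genes, and Fgfr2 then differed by 2.56 and 2.76 points. Over sites covered in both replicates of the full span, Fgfr2 was called in the opposite direction, with CC lower (-1.23 and -1.58 points, a call made for 33.6% of genes) and MM higher (0.563 and 0.875 points), while the other 7 stayed higher in CC. The excess at Spry2 was 73.4 and 75.9 points, at Dusp6 59.7 and 62.6, and at Fgf4 54.4 and 61.9. At Fgfr1, the smallest of the called ones by full span, it was 25.2 and 23.3 points. MM, the fully methylated state, was called lower at the same 7 genes, with 31.7% of genes called. It made up 2.82% and 0.83% of calls at Spry2 but 33.9% and 35.1% at Fgfr1. Calls of neighbouring sites share read pairs, so these p-values are too small. A quasi-binomial model, which allows for extra spread between sites but still takes them as independent, kept 7 of 8 for CC by full span, against 25.5% of genes, and 7 of 8 by principal-transcript span, against 24.4%, where Fgfr2 was lost with an adjusted p of 0.15 in replicate 2.

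The unmethylated region around each start was measured outwards in 200 bp bins with at least 50% CC. From the start of the full span it was 0 bp in both replicates at Fgf4, 2400 bp in both at Fgfr1, and 17200 and 2000 bp at Fgfr2. The other 5 genes had the same lengths from either start. From the principal start it extended over 8000 and 9200 bp at Spry2, 7200 and 10600 bp at Spry4, and 6200 bp in both replicates at Fgf4. Etv4 had 6000 and 5400 bp, Dusp6 5800 and 5200 bp, Etv5 4000 and 5000 bp, and Fgfr2 4000 bp in both. Downstream of the start alone, the stretch was 5200 and 6600 bp at Spry2, 3200 and 3400 bp at Dusp6 and 4200 bp in both at Fgf4. Their principal transcripts are 4.87, 4.26 and 3.86 kb long, so the high body CC there was largely this same stretch. Over the principal starts of all 21938 genes the median was 1400 and 1000 bp and the 95th percentile 4600 and 3800 bp. Genes whose start was read too thinly count there as 0 bp, which can lower these values. In replicate 2 a length of 0 bp ranked 14356 from the top. Spry2, Spry4, Fgf4, Etv4 and Dusp6 exceeded the 95th percentile in both replicates, Fgf4 from its principal start alone. Fgfr1 had 3600 bp in replicate 1 and 0 in replicate 2, but 3500 and 3000 bp with 500 bp bins. In replicate 2 its start was thinly read and its promoter CC lay below the 50% limit. Which of these gave the length of 0 was not tested. With at least 80% CC the stretch was 6600 bp in both replicates at Spry2, 4800 and 5000 bp at Dusp6, 4600 and 4400 bp at both Spry4 and Fgf4, and 3200 and 2600 bp at Etv4, so Spry4 then stood below Spry2 and Dusp6.

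**Figure D2:**
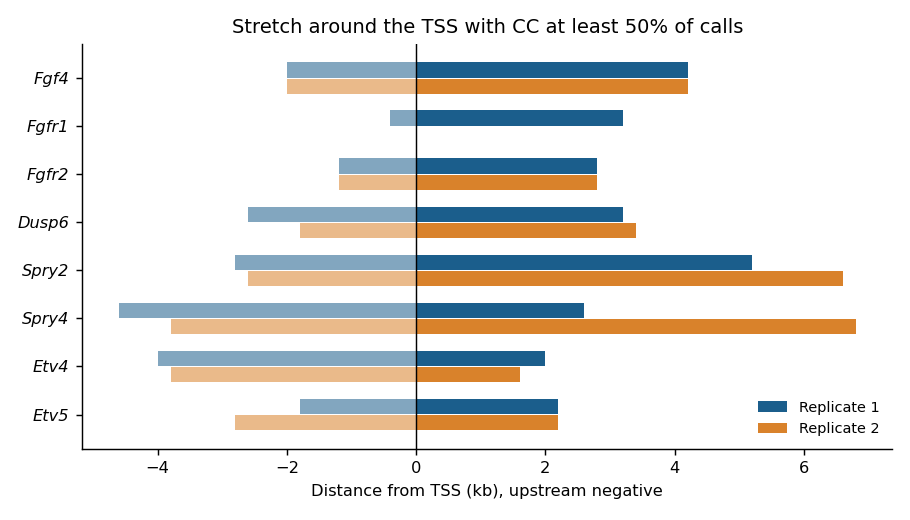
Length of the stretch around the principal-transcript TSS in which consecutive 200 bp bins had CC at least 50% of calls, in kb upstream (pale) and downstream (dark) of the TSS for each gene and replicate. Spry4 reaches 4600 and 3800 bp upstream, and Spry2 reaches 5200 and 6600 bp downstream.

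In the windows along the 4 shorter loci, CC fell upstream of the TSS at Dusp6 and inside the gene at Spry4. Dusp6 had 100% CC in both replicates from 2 to 1 kb upstream of the TSS and 19.0% and 12.5% from 4 to 3 kb upstream. At Spry2 CC was 94.9% and 92.5% from 3 to 4 kb downstream of the TSS, close to the end of the gene. Spry4 fell from 100% in its first kb to 52.6% and 52.4% from 7 to 8 kb, and stood again at 79.1% and 86.6% from 11 to 12 kb. Fgf4 had 86.2% and 88.1% in its last window and was above 96% in both replicates in the 3 windows before it.

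**Figure D3:**
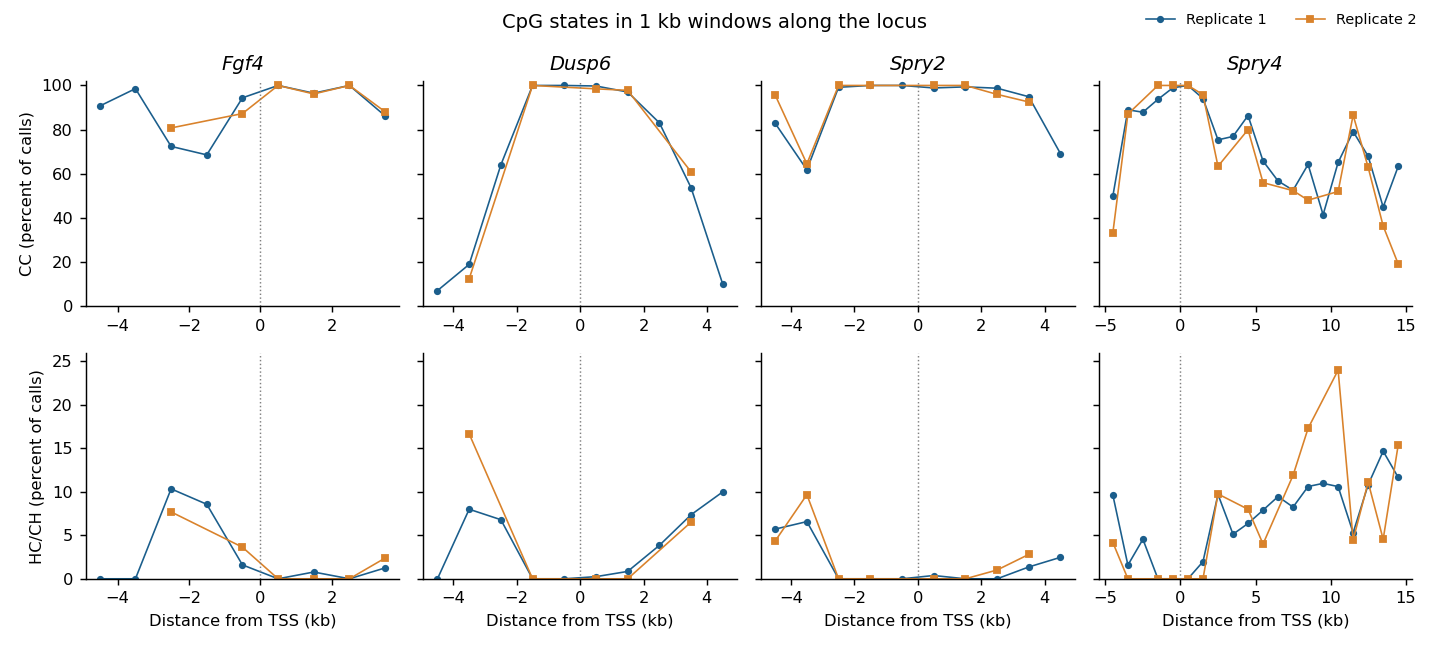
CC (top) and HC/CH (bottom) as a percentage of calls in 1 kb windows against the distance from the principal-transcript TSS (dotted) at Fgf4, Dusp6, Spry2 and Spry4, for replicate 1 (circles) and replicate 2 (squares), windows with at least 20 calls. CC is near 100% around each start, and HC/CH is near 0 there and higher where CC declines.

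Etv5, Fgfr1 and Etv4 had further unmethylated windows inside the gene, beyond the stretch at the start. At Etv5 8 windows between 26 and 42 kb from the TSS had at least 80% CC in both replicates, with 96.7% and 100% from 27 to 28 kb (151 and 37 calls). Fgfr1 had 5 such windows, at 17 to 19 kb and at 26 to 29 kb, with 95.9% and 100% from 26 to 27 kb (146 and 40 calls). Etv4 had 2, from 11 to 13 kb, with 84.1% and 83.3% in the first (63 and 36 calls) and 95.1% and 87.9% in the second (103 and 33 calls). No such window was found at the other 5 genes among windows with at least 20 calls in each replicate. One stretch of 300 bases is given for Etv5 and one for Fgfr1, for comparison with the promoters above.

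Etv5 inner unmethylated stretch, chr16:22407375-22407674, plus strand: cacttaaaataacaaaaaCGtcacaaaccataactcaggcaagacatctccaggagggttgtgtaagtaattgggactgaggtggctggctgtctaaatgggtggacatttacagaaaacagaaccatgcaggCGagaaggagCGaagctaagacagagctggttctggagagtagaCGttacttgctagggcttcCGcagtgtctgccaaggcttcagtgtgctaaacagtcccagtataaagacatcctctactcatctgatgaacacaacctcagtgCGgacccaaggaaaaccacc

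Fgfr1 inner unmethylated stretch, chr8:25545333-25545632, plus strand: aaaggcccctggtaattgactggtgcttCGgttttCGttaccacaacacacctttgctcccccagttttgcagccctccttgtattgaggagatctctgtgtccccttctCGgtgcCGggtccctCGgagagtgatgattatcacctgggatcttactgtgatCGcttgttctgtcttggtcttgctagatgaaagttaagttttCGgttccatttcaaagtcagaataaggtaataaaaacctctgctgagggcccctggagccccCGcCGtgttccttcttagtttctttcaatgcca

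The Etv5 stretch has 6 CpGs and was CC in 87.3% of 79 calls and 94.6% of 37 calls. The Fgfr1 stretch has 9 CpGs and was CC in 94.0% of 84 calls and 100% of 12 calls. No exon of the annotated gene overlaps either.

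**Figure D4:**
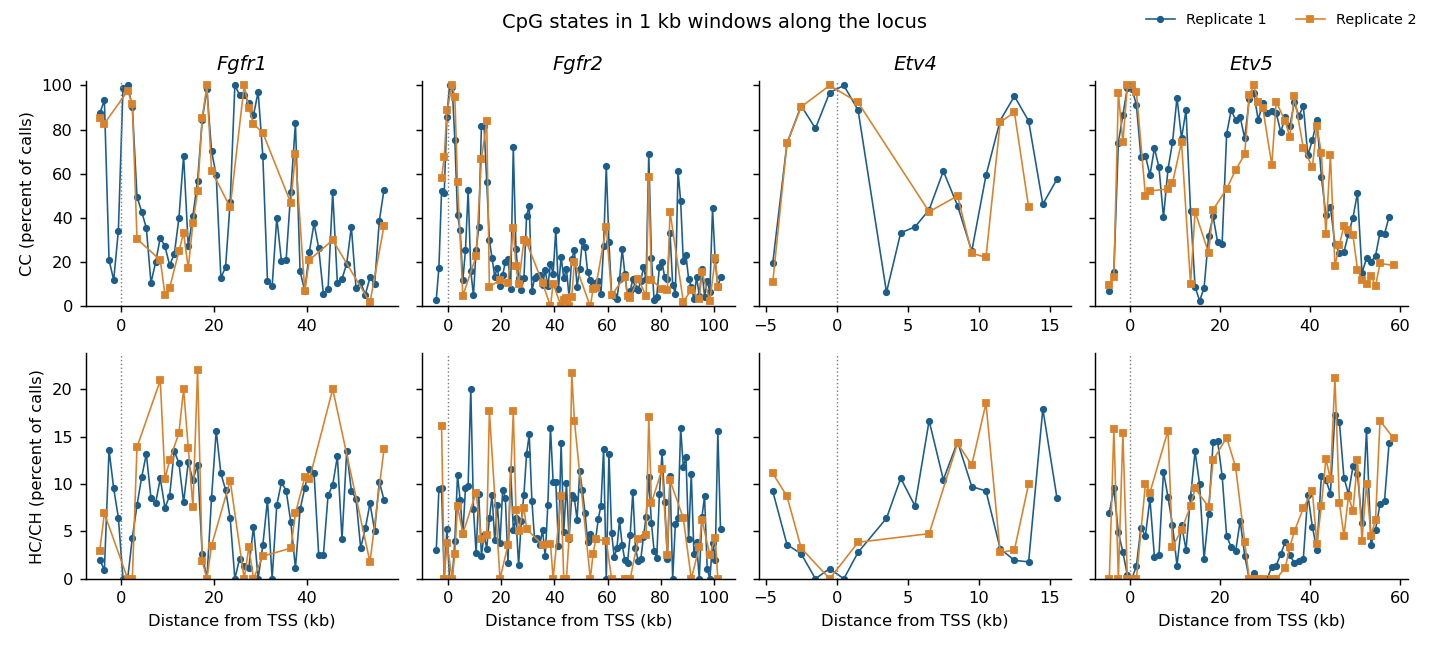
CC (top) and HC/CH (bottom) as a percentage of calls in 1 kb windows against the distance from the principal-transcript TSS (dotted) at Fgfr1, Fgfr2, Etv4 and Etv5, for replicate 1 (circles) and replicate 2 (squares), windows with at least 20 calls. Inner windows of at least 80% CC appear at Fgfr1, Etv4 and Etv5, and HC/CH is at most 3.87% in replicate 1 and 5% in replicate 2 in the 8 of Etv5.

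Hydroxymethylation opposite an unmodified C (HC/CH) was high in the bodies of the ETS factor genes, of Spry4 and of Fgfr1. Its level was lowest at Spry2 by full span and at Fgf4 by principal-transcript span, but no body was called lower in both replicates. Replicate 1 alone called Fgf4 and Spry2 lower by full span. The share of all genes called lower is not given. The median gene body had 4.92% and 4.19% HC/CH. Spry4 had 8.47% and 10.1% (160 of 1888 and 41 of 404 calls, mean 9.31% ± 1.18, SD, n = 2), and Etv4 had 8.80% and 8.15% (mean 8.47% ± 0.457). Both lay above the 94th percentile of genes in each replicate.

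Fgfr1 followed with 6.99% and 7.75% (mean 7.37% ± 0.537) and Etv5 with 6.20% and 7.68% (mean 6.94% ± 1.05). In this order, the means of Spry4 and Etv4 and those of Fgfr1 and Etv5 differed by less than the sum of their SDs, while those of Etv4 and Fgfr1 differed by slightly more. Fgfr2 had 4.92% and 4.33% over its full span and 6.67% and 5.39% over its principal transcript. Dusp6 had 3.33% and 3.64%, and Spry2 had 0.705% and 2.49%. Fgf4 had 3.31% and 3.74% over its full span but 0.656% and 0.709% over its principal transcript, from 3 and 1 calls.

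HC/CH was called higher than in all other gene bodies at 4 of the 8 members, Fgfr1, Spry4, Etv4 and Etv5, a call made for 13.4% of genes. The differences were 3.89 and 6.04 points at Spry4 (adjusted p = 3.86e-12 and 3.81e-06, Fisher's exact test) and 4.21 and 4.04 points at Etv4 (adjusted p = 8.68e-09 and 0.0154). By the same exact test they were 2.41 and 3.64 points at Fgfr1 (adjusted p = 1.69e-16 and 7.15e-09) and 1.61 and 3.57 points at Etv5 (adjusted p = 1.27e-08 and 1.66e-10). With principal-transcript spans Fgfr2 joined them, by 2.05 and 1.25 points, giving 5 of 8 against 13.0% of genes. The quasi-binomial model called the same 4 genes by full span, against 9.86% of genes. By principal-transcript span it called 3 of 8, against 9.39%. Fgfr2 and Etv4 passed only in replicate 1 there, with an adjusted p of 0.0808 and of 0.0507 in the other library. Replicate 2 was read at a mean of 6.36 calls a site, against 10.5 in replicate 1.

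Because CC took up much of these bodies, HC/CH was also set against modified calls alone, a view added after the data had been seen. At Spry4 it made up 28.0% and 25.9% of modified calls, at Etv4 21.6% and 16.8%, at Etv5 15.8% and 16.7%, and at Fgfr1 13.1% and 13.3%. The median gene had 6.46% and 5.22%. By full span, 5 of the 6 members with enough modified calls were called higher, against 21.8% of genes, and these were the 4 genes above and Fgf4 with 13.7% and 18.9%. By principal-transcript span 5 of 5 were called, among them Fgfr2 with 8.73% and 6.79% and without Fgf4, which had too few modified calls, against 21.0% of genes.

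HC/CH was highest in windows of intermediate CC. When the 169 windows of 1 kb in the principal-transcript loci of the 8 genes were sorted by CC in the other replicate, windows of 20% to 80% CC had 8.20% HC/CH in replicate 1 (66 windows) and 10.0% in replicate 2 (79 windows). In 1 kb tiles of the whole genome with the same limits it was 5.93% and 5.94%. Within these limits the locus windows held more CC and less MM than the tiles in both replicates. The HC/CH levels were therefore not compared at equal CC. Windows with at least 80% CC had 1.54% and 1.94% at the loci and 1.64% and 1.94% over the genome. Windows under 20% CC had 7.60% and 4.28% at the loci and 4.37% and 3.36% over the genome. There too the locus windows held more CC than the tiles in both replicates. This sorting was chosen after the profiles had been seen and was not tested, and the windows of a locus share libraries and neighbouring reads.

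By locus, the window with the most HC/CH lay in the body of the longer genes and upstream of the short ones. Etv5 had 17.3% and 21.2% from 45 to 46 kb (81 and 33 calls), the highest of the windows ranked by their lower replicate in the principal-transcript loci. Etv4 had 14.4% and 14.3% from 8 to 9 kb (90 and 28 calls). Fgfr1 had 12.3% and 13.8% from 14 to 15 kb, Spry4 11.7% and 15.4% from 14 to 15 kb, and Fgfr2 13.3% and 11.5% from 80 to 81 kb. Dusp6 and Spry2 had theirs from 4 to 3 kb upstream, with 8% and 16.7% and with 6.58% and 9.68%. The Fgf4 window, from 3 to 2 kb upstream, had 10.3% and 7.69%, from 3 and 2 calls. These places depend on the width, since with windows of 2 kb the highest lay at 40 to 42 kb at Fgfr1, at 6 to 8 kb at Fgfr2, and from 6 to 4 kb upstream at Spry2 and 2 to 0 kb upstream at Fgf4. The windows of the other 4 genes held the 1 kb ones. Counted from the start of the full span, the highest 1 kb windows were others at Fgf4 (2 to 3 kb, 8.70% and 19.0%, from 8 and 4 calls), at Fgfr1 (chr8:25534654-25535653, 12.1% and 22%) and at Fgfr2 (2582 to 2583 kb, 17.4% and 16.1%). The sequences below are the 300 bases with the most HC/CH calls in the Etv5 and Etv4 windows, both intronic and with CpGs in capitals.

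Etv5 HC/CH stretch, chr16:22394298-22394597, plus strand: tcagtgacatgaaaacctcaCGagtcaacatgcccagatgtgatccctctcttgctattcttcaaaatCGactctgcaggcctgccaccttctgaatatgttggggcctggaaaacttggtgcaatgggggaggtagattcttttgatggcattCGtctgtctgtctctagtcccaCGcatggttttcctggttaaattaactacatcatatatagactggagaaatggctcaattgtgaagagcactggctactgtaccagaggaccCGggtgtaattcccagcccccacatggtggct

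Etv4 HC/CH stretch, chr11:101776664-101776963, plus strand: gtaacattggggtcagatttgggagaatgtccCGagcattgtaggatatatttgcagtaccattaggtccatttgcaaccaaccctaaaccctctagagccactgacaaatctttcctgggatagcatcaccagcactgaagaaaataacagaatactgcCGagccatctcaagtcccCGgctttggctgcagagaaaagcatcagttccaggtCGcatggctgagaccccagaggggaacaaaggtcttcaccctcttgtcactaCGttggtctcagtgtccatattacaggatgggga

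In the Etv5 stretch, which has 5 CpGs, 8 of 45 and 5 of 20 calls were HC/CH. In the Etv4 stretch, which also has 5 CpGs, the counts were 11 of 66 and 4 of 23. Across the 169 windows of the principal-transcript loci with at least 20 calls in each replicate, the levels of the replicates ranked alike for CC (Spearman's rho 0.940), less so for HC/CH (0.666) and least for HM/MH (0.359). Over the 1201 windows of the full-span loci rho was 0.766, 0.406 and 0.211. These are given as a description over windows that share genes and libraries.

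HM/MH, in which 5hmC faces 5mC, was called neither higher nor lower at any of the 8 bodies, against 2.09% of genes called higher and 2.25% lower. By the unadjusted Fisher's exact tests, 0 of 8 had p under 0.05 with the same sign in both replicates, and by the quasi-binomial model 1 of 8 (Dusp6) did. By principal-transcript span 2 of 8 did (Fgf4 and Fgfr2), and 3 of 8 by the quasi-binomial model (Dusp6 too). The share of all genes meeting this unadjusted rule was not taken, and the 2.09% and 2.25% are for adjusted calls. The replicates taken alone gave different calls. Replicate 1 called 4 of 8 lower (Fgf4, Dusp6, Spry2 and Spry4), against 11.6% of all genes, and replicate 2 called 2 of 8 higher (Fgfr1 and Fgfr2), against 5.52%. Levels over the full span ran from 0.235% at Spry2 to 4.25% at Fgfr2 in replicate 1, and from 0% at Dusp6 to 4.31% at Fgfr1 in replicate 2, with a median gene at 4.18% and 2.63%. In the synthetic duplexes of known state, MM was called HM/MH in 4.51% of reads of replicate 1 and 0.467% of replicate 2. The miscall of CC as HC/CH was 0.154% and 0.219%, and that of MC as HC was 3.49% and 0.615%. After correction by these rates, HC/CH was 8.37% and 10.4% at Spry4 and 8.63% and 8.33% at Etv4.

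The correction lowered HM/MH more in replicate 1 than in replicate 2. At Fgfr2 it became 1.55% and 2.55%, at Fgfr1 2.31% and 3.99%, at Etv5 2.59% and 2.56%, and at Spry4 1.34% and 3.86%. All other bodies together had 1.52% and 2.35% after correction. Against these, corrected HM/MH was higher in both replicates at Fgfr1 (0.796 and 1.64 points), Etv5 (1.07 and 0.212), Etv4 (0.206 and 0.244) and Fgfr2 (0.0323 and 0.203), so the difference in replicate 1 changed sign at Fgfr1, Etv4 and Etv5. It was lower in both at Fgf4, Dusp6 and Spry2, and differed in sign at Spry4. Corrected levels are not counts and were not tested.

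HM/MH also varied along the loci, and its highest window was likewise taken by the lower replicate. In the 1 kb windows counted from the principal start, at Fgfr2 it lay 95 to 96 kb from the TSS with 9.09% and 12.5% (77 and 32 calls), at Etv5 50 to 51 kb with 9.17% and 12.5% (109 and 24 calls), and at Fgfr1 8 to 9 kb with 5.96% and 6.98% (151 and 43 calls). At the other genes of this tiling it held at most 4 HM/MH calls in each replicate. It lay 5 to 6 kb from the TSS at Spry4 (5.26% and 4%), and upstream of the TSS at Dusp6 (3% and 8.33%, 4 to 3 kb), Spry2 (1.32% and 6.45%, 4 to 3 kb) and Etv4 (3.95% and 5.56%, 5 to 4 kb). At Fgf4 each of the 6 windows had 0% in at least 1 replicate, so none ranked highest.

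The place of the highest HM/MH window depended on where the windows began and on their width. Counted from the start of the full span, it lay inside the body of Etv4 at 14 to 15 kb, with 7.86% and 5% (11 and 1 HM/MH calls), although these windows were shifted by only 61 bp. At Fgfr1 it was chr8:25564654-25565653, also within the principal transcript, with 12.04% and 7.69% (13 and 2 HM/MH calls). Fgf4 had 6.76% and 5% from 4 to 3 kb upstream of the span start (5 and 1 HM/MH calls), and Fgfr2 11.4% and 15% at 2408 to 2409 kb. With windows of 2 kb from the principal start it moved to 34 to 36 kb at Fgfr1, 16 to 18 kb at Fgfr2, 8 to 10 kb at Etv4 and 12 to 14 kb at Spry4, and Fgf4 had 0.625% and 9.23% from 2 to 0 kb upstream. At Dusp6, Spry2 and Etv5 the full span gave the same 1 kb window and the 2 kb window contained it.

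Within the bodies, HC/CH exceeded HM/MH at 4 of 8 genes by exact binomial tests, Fgfr1, Fgfr2, Spry4 and Etv5, a call made for 9.11% of genes. By this exact test the excess was 6.41 and 5.94 points at Spry4 (adjusted p = 1.85e-16 and 0.0209) and 2.57 and 4.78 points at Etv5 (adjusted p = 6.51e-10 and 4.22e-08). At Etv4 it was 5.98 and 5.19 points, with an adjusted p of 0.0808 in replicate 2. By principal-transcript span 3 of 8 were called, against 8.11% of genes, since Fgfr2 had an adjusted p of 0.074 in replicate 2. After the spike-in correction the excess, which was then not tested, was 4.40 and 3.91 points at Fgfr1, 2.88 and 1.76 at Fgfr2, 7.03 and 6.58 at Spry4, 6.91 and 5.74 at Etv4, and 3.36 and 5.30 at Etv5.

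No difference between the coding and the template strand was called. For MC/CM, HC/CH and HM/MH, 0 of the 8 bodies were called by the exact binomial test and 0.0% of 17346 genes were. At an unadjusted p under 0.05 in both replicates with the same sign, a rule not counted over all genes, there were also 0 of 8. With at least 10 calls per site 1 of 3 had this for HM/MH, Fgfr1 (-1.29 and -5.13 points, exact binomial test, adjusted p = 0.16 and 1). At Etv5 the coding strand carried H less often than the template strand by 0.074 and 0.913 points of HC/CH, and at Fgfr1 the difference had opposite signs in the 2 replicates.

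Within the principal-transcript bodies, exons and introns differed in both directions. At Fgfr2 exons had 43.4% and 43.7% CC and introns 19.9% and 16.6%, while at Fgfr1 exons had 31.1% and 27.0% and introns 46.6% and 44.1%. At Etv5 exons had less CC than introns (47.6% and 27.5% against 61.2% and 55.3%) and more HC/CH (10.7% and 13.2% against 6.01% and 7.40%), from 271 and 91 exon calls. These differences were not tested.

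Over 35 further genes of the pathway, body CC stood closer to the median gene. CC was called higher at 20 and lower at 3 of the 32 tested, against 33.1% and 34.5% of all genes. HC/CH was called higher at 10, against 13.4%, and HM/MH higher at 1, against 2.09%. HC/CH was called lower at 0, for which the share of all genes is not given. The quasi-binomial model called HC/CH higher at 6, against 9.86%. Replicate 1 alone called HC/CH higher at 20 and lower at 3 of the 32. It called HM/MH higher at 5 and lower at 4, the lower call against 11.6% of all genes. Replicate 2 alone called HC/CH higher at 11, and HM/MH higher at 4, against 5.52% of all genes. For the other counts from a single replicate the share of all genes is not given, so they show nothing particular to the pathway. Ranked by the lower of the 2 replicates, Fgfr4, a receptor gene, had the highest body HC/CH with 8.77% and 8.23%, followed by the inhibitor gene Spred2 with 7.91% and 8.18% and the MEK gene Map2k1 with 7.74% and 7.55%. Ranked by the higher of the replicates, the lowest were the ERK-responsive transcription factor genes Myc, with 1.22% and 1.87%, and Egr1, with 3.78% and 3.01%, and the ligand gene Fgf2, with 3.86% and 2.75%. Spry1, the Sprouty gene outside the 8, had 4.36% and 2.52%, below the median gene in both. The median of the list was 6.04% and 5.18% HC/CH and 30.5% and 24.0% CC, against 5.56% and 6.003% HC/CH and 65.2% and 57.4% CC for the 8 members. In the promoters, CC was called higher than in the body at 27 of 28, a call that 87.8% of all genes received.

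Over the levels of the 6 state groups in promoter and body, the gene most like Dusp6 was Irx3 (Euclidean distance 1.35 percentage points over 12 levels, 10307 genes), that most like Spry2 was Srsf2 (1.53), and that most like Etv5 was Pkm (2.13). Etv4 was nearest to Rpl26 (2.22) and Spry4 to Cdc42se1 (3.26). With principal-transcript spans Spry4 was nearest to Zfp574 (2.77), Fgf4 to Zfp503 (2.94) and Fgfr2 to Shroom3 (1.82). Fgfr1 had too few promoter calls in replicate 2 for a distance.

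The promoters of 7 embryonic stem cell genes were read as well, since no RNA was measured. Pou5f1, Sox2, Klf4, Zfp42 and Tdgf1 had at least 97% CC in both replicates, Nanog had 80.1% and 86.2%, and Esrrb had 28.0% and 15% at the start of its span but 86.8% and 82.4% at its principal start. Promoter CC does not show transcription of these genes. The median over 11184 promoters was 90.1% and 88.7% CC, so these levels do not check the label of the cells.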

How the data were processed

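SCoTCH-seq libraries of E14 mESC genomic DNA, 2 replicates from separate passages, were analysed with their spike-in duplexes of known state. According to the study's methods, the authors sorted read pairs by their adapters, mapped the trimmed inserts, discarded PCR duplicates and assigned each pair 1 state per CpG. The submitters' processing notes list cutadapt 4.6, SAMtools, Picard 3.1.1 and mm10. For each CpG and replicate the authors deposited the count of calls per state, the depth, and the percent (count divided by depth), after removing blacklisted regions and sites under 5 calls. The deposited counts were used and the deposited percent values only checked against them.

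The 2 files held 13676795 and 4918612 sites. Counts were summed per promoter (1 kb either side of the TSS), gene body (the rest of the span) and upstream part of 21938 protein-coding genes of GENCODE vM21. Levels are percentages of summed calls with exact (Clopper-Pearson) 95% intervals. Each replicate was tested alone over all genes with at least 50 calls per part (Fisher's exact test between parts or against all other bodies, exact binomial test between states or strands, two-sided, Benjamini-Hochberg), and a gene was called when both replicates had an adjusted p under 0.05 and the same direction. These p-values measure counting within a library, not variation between cultures. The quasi-binomial alternative had a dispersion of at least 1. Windows needed 20 calls in each replicate. The tests were tried on simulated data, and the spike-in matrix of 9 states was used for a corrected alternative.

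All 8 genes are named, with the windows of highest HC/CH and HM/MH, the nearest gene where promoter calls allowed a distance, and of the pathway list the 3 genes with the highest (by the lower replicate) and the 3 with the lowest body HC/CH (by the higher replicate). Spry1 was named besides, and inner windows, modified-call shares, CC classes and exon values were chosen after the values were seen. The 8 genes and the lists were chosen with earlier results of these data known. Python 3.11.15, NumPy 2.4.6, pandas 2.3.3, SciPy 1.17.1, Numba 0.67.0 and Matplotlib 3.10.9 were used.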

Additional observations from a re-analysis of the deposited data

How the results depend on the processing

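No paired analysis was possible because there was 1 group. Promoter CC was called higher at 2 of the 3 members still testable with sites covered in both replicates. It was called higher at 21 of 22 testable pathway genes there, and the share of all genes is not given for that setting. With a promoter of 2 kb either side, promoter CC was called at 8 of 8 members, 7 higher and Fgf4 lower. With 10 calls per site or 500 bp, no member had enough calls. Body HC/CH was called at 0 of 3 testable members with at least 10 calls per site and at 4 to 7 of 8 when either replicate was left out. The 7, from replicate 1 alone, were 5 higher and 2 lower (Fgf4 and Spry2), and the 4 from replicate 2 alone were all higher. Of the further pathway genes, 1 of 14 was called with at least 10 calls per site. Replicate 1 alone called 23 of 32 of them, 20 higher and 3 lower, and replicate 2 alone called 11, all higher. HC/CH against HM/MH was called at 0 of 3 members with 10 calls per site, and at 0 of 14 testable pathway genes. Shares over all genes are not given for these body counts. The counts therefore show nothing particular to the members or to the pathway. The median body HC/CH of the 8 genes was 5.78%, 6.63% with 10 calls per site (7 genes) and 6.49% by principal-transcript span. The median stretch from the full-span starts was 5600 bp, or 3850 bp with 80% CC.

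For single genes, 11 values changed sign. Against other bodies, Fgfr2 CC was 2.66 points by principal-transcript span under both tests, called by the exact but not by the quasi-binomial one, and Fgfr2 MM was -4.21 points there, -0.161 in introns and -0.112 to 0.575 when either replicate was left out. Fgf4 HC/CH was 1.03 points in introns, and both intron values are of the full span. Leaving out either replicate gave HM/MH differences of -0.306 to 1.598 at Fgfr1, -2.16 to 1.499 at Spry4, -1.41 to 0.254 at Etv4 and -0.600 to 0.191 at Etv5, so the replicates disagreed in sign there. After the spike-in correction they disagreed at Spry4 but not at the other 3. The causes of the other changes were not tested. Depth left 5 of the 8 promoters with enough calls in both replicates for a test.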
